A study of Mus musculus with 12 samples.

Results

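The interferon regulatory factors (IRFs) examined here are encoded by 6 mouse genes: Irf1, Irf2, Irf3, Irf4, Irf5 and Irf8. Probe sets annotated with exactly 1 of these symbols were taken, 12 of the 45037 probe sets besides controls, and the one with the highest average over the 12 arrays stood for its gene, which gave 6 of 18193 genes. Irf3 had 4 probe sets, Irf4, Irf5 and Irf8 had 2 each, and Irf1 and Irf2 had 1 each. The remaining probe sets served as a check.

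RNA of lymph node cells from mice of the P14-TCR strain, which carry a transgenic T cell receptor for the viral peptide gp33-41 on MHC class I, was hybridised to Affymetrix arrays. The 4 groups were PKD2-null cells with peptide, PKD2-null cells without peptide, wild-type cells with peptide and wild-type cells without peptide, with 3 arrays in each. Cells of 3 null and 3 wild-type mice spent 4 h in culture, with 62.5 ng/ml peptide or with none, so that each mouse gave 1 array of each kind. A code of genotype and number in the sample descriptions, shared by an array with peptide and an array without it, was read as the mouse. PKD2 (protein kinase D2, product of Prkd2) is a serine/threonine kinase activated by diacylglycerol signals behind the antigen receptor, and the series was made to ask what its loss does to the transcriptional response to antigen. All 4 groups shared the receptor transgene and the culture, and the cells were whole lymph node suspensions rather than purified T cells. Age and the way in which Prkd2 was inactivated are not given in the sources used here.

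IRFs share a DNA-binding domain that reads GAAA-type motifs in interferon-stimulated response elements (ISRE). IRF3 and IRF5 are present before stimulation and are switched on by phosphorylation downstream of nucleic acid sensors and Toll-like receptors, IRF1 and IRF2 compete for many of the same elements as activator and repressor, and IRF4 and IRF8 are factors of the haematopoietic lineage that bind DNA weakly alone and work with ETS or AP-1 partners. In T cells IRF4 is known as a factor whose level follows the strength of the antigen receptor signal and which is needed for the expansion and effector programme of CD8 T cells.

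The 250 bases before the annotated start were read for 8 promoters of the 6 genes (RefSeq, GRCm38.p6, all on the + strand) and searched on both strands for 5 motifs. These were GAS (TTCNNNGAA, the element bound by STAT dimers after interferon), ISRE (GAAA, any 2 bases, GAAA), the ETS-IRF composite element EICE (GGAA, any 2 bases, GAAA), AP-1 (TGANTCA) and the NF-kappaB motif. Over all 32851 promoters of this length, 7.02% held GAS, 2.98% ISRE, 2.3% EICE, 6.75% AP-1 and 7.25% the NF-kappaB motif. The promoters of the 4 genes that responded to peptide are shown, with matched letters in capitals. They lie at chr11:53769764-53770013 (Irf1), chr8:46739495-46739744 (Irf2), chr13:30748983-30749232 (Irf4) and chr8:120736108-120736357 (Irf8).
Irf1: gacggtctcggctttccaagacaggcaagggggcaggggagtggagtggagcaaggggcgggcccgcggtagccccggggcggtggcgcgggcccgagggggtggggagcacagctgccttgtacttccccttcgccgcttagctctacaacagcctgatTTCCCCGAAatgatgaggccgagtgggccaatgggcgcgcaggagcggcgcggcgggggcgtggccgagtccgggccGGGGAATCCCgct
Irf2: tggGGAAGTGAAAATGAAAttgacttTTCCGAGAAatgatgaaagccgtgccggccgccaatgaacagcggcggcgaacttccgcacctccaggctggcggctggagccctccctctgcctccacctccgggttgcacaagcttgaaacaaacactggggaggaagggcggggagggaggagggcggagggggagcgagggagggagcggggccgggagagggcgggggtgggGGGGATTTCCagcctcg
Irf4: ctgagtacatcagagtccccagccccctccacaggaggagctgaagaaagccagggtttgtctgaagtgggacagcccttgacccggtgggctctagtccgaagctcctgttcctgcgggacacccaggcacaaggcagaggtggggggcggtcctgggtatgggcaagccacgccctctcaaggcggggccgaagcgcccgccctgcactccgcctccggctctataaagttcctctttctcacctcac
Irf8: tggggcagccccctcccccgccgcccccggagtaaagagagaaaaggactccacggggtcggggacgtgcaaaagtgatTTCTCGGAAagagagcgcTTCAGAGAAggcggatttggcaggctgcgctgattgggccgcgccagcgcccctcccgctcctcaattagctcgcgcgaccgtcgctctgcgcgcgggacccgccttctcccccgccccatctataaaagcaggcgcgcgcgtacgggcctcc
The Irf1 window held a GAS match 90 to 82 bases and an NF-kappaB match 13 to 4 bases before the start. The Irf2 window held an EICE match (247 to 238 bases before the start) that overlaps an ISRE match (241 to 232), a GAS match (224 to 216) and an NF-kappaB match (17 to 8). The Irf8 window held GAS matches at 171 to 163 and 153 to 145 bases before the start. None of the 5 motifs was matched in the windows of Irf3, Irf4 and Irf5, or in those of a second promoter of Irf1 and of Irf8. A match describes letters only, and the arrays do not measure binding.

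The labels were checked with Prkd2, whose signal (all values below are log2 signals or differences of them) averaged 5.48 ± 0.12 in null cells with peptide and 6.00 ± 0.29 in null cells without it, against 8.33 ± 0.18 in wild-type cells with peptide and 10.17 ± 0.17 in wild-type cells without it (SD, n = 3 arrays per group here and throughout). The arrays had medians of 4.66 to 4.72, and arrays within a group correlated at 0.991 or more. All 6 measured T cell markers and all 10 measured B cell markers lay above the median of all probe sets in every group, so both kinds of cell were represented in the RNA. The mean signal of the B cell markers was 8.57, 9.23 and 8.49 in the 3 null mice with peptide and 9.20, 9.86 and 9.16 in the same mice without it, against 7.92, 8.08 and 7.91 in the wild-type mice with peptide and 8.72, 8.76 and 8.68 without it. Null mouse 2 had the highest value on this list under either culture condition, and some of the results that rest on its arrays are also given without them. In such bulk samples, fewer cells of a type and less RNA per cell cannot be told apart.

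Peptide changed the same 4 IRF genes in both genotypes. Irf4, Irf8 and Irf1 rose and Irf2 fell, while Irf3 and Irf5 did not pass the test by the probe sets chosen. In null cells the count of 4 of 6 stood against 31.5% of all genes called (12.5% higher, 19% lower), and in wild-type cells against 35.5% (15.1% higher, 20.4% lower). Of all probe sets, 24.8% were called in null and 29% in wild-type cells. The median change of the 6 genes was 0.71 in null cells and 0.91 in wild-type cells, beside -0.02 and 0.014 over all genes. The 6 genes were chosen with earlier results of these data known, and Irf7 and Irf9, which are not among them, were called in neither genotype. A call means an adjusted two-sided p under 0.05 in a limma fit of all 12 arrays (Benjamini-Hochberg over 45037 probe sets), and errors of differences are the standard errors (SE) of that fit. The wild-type and null peptide comparisons use separate arrays, but each genotype comparison shares its arrays with them.

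**Figure D1:**
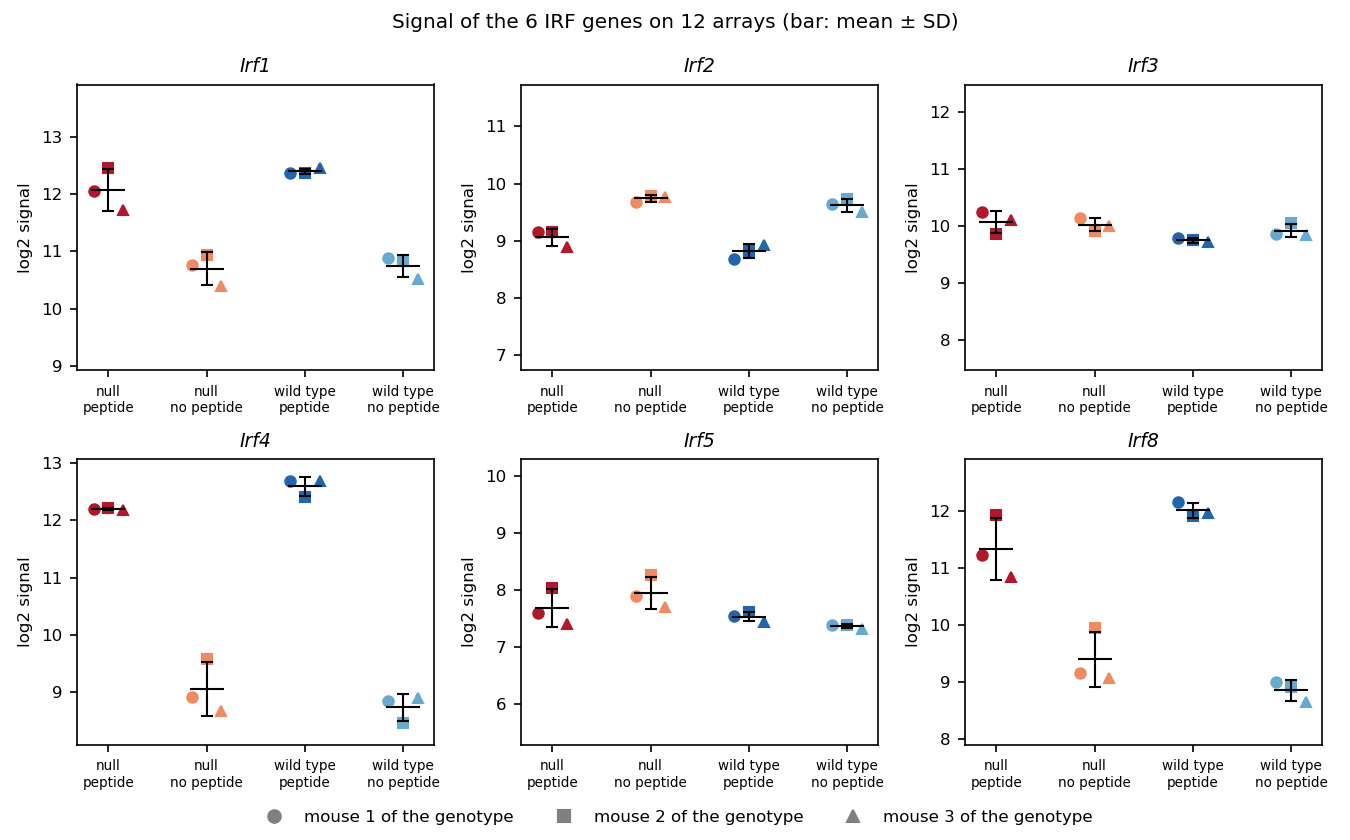
Log2 signal (y axis) of the 6 IRF genes in each of the 4 groups (x axis); each point is 1 array, marker shapes mark the mouse within its genotype, and bars give the mean and SD of 3 arrays. The signals of Irf1, Irf4 and Irf8 lie higher and those of Irf2 lower in each peptide group than in its group without peptide, with no overlap; the y axes start at different levels but span the same width.

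Irf4, the IRF tied to antigen receptor strength, had the highest rise of the 6 genes. Its signal was 12.21, 12.21 and 12.19 in null cells with peptide and 8.91, 9.58 and 8.66 in null cells without it. In wild-type cells it was 12.69, 12.41 and 12.69 with peptide and 8.84, 8.45 and 8.88 without it. Every peptide array lay above every array without peptide. The 3 null peptide arrays had an SD of 0.013 and lay below all 3 wild-type peptide arrays. The change was 3.15 (SE 0.195, adjusted p = 2.1e-07, 8.88-fold) in null cells and 3.87 (SE 0.195, adjusted p = 2.1e-08, 14.6-fold) in wild-type cells. It ranked 34 from the top of 18193 genes in null cells and 27 in wild-type cells. The second Irf4 probe set, of lower signal, gave 2.31 in null cells (adjusted p = 1e-06) and 3.28 in wild-type cells (adjusted p = 3.2e-08).

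Irf8, known for its part in myeloid, dendritic and B cell development and also induced in activated CD8 T cells, followed. Its signal was 11.24, 11.92 and 10.84 in null cells with peptide and 9.17, 9.95 and 9.08 without it. In wild-type cells it was 12.16, 11.91 and 11.97 with peptide and 9.00, 8.93 and 8.65 without it. The groups with and without peptide did not overlap in either genotype, and null mouse 2 was the highest null mouse in both. The change was 1.93 (SE 0.260, adjusted p = 0.00011, 3.81-fold) in null cells and 3.15 (SE 0.260, adjusted p = 1.2e-06, 8.90-fold) in wild-type cells. It ranked 193 from the top of all genes in null cells and 63 in wild-type cells. The second Irf8 probe set gave 2.02 in null cells and 3.05 in wild-type cells, both called.

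Irf1, an activator induced by interferon gamma and by NF-kappaB, had a signal of 12.06, 12.45 and 11.72 in null cells with peptide and 10.77, 10.94 and 10.39 without it. In wild-type cells the signal was 12.37, 12.37 and 12.46 with peptide and 10.88, 10.83 and 10.52 without it. The wild-type peptide arrays spanned less than the null ones, and with and without peptide did not overlap. The rise was 1.38 (SE 0.179, adjusted p = 7.8e-05, 2.60-fold) in null cells and 1.66 (SE 0.179, adjusted p = 1.1e-05, 3.16-fold) in wild-type cells.

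Irf2, which opposes IRF1 at shared elements in many settings, was the member that fell. Its signal was 9.15, 9.15 and 8.89 in null cells with peptide and 9.67, 9.79 and 9.76 without it. In wild-type cells it was 8.69, 8.83 and 8.93 with peptide and 9.64, 9.73 and 9.50 without it. Each peptide group lay wholly below its group without peptide. The signal fell by 0.67 on the log2 scale in null cells (SE 0.10, adjusted p = 0.00023) and by 0.81 in wild-type cells (SE 0.10, adjusted p = 3.7e-05), so 1.60-fold in null and 1.75-fold in wild-type cells. Its probe set is of the s_at kind, which can bind transcripts of more than 1 gene.

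Irf3, the factor activated by TBK1 downstream of DNA and RNA sensing, stood at 10.24, 9.86 and 10.10 in null cells with peptide and 10.14, 9.91 and 10.00 without it. In wild-type cells it stood at 9.79, 9.75 and 9.71 with peptide and 9.86, 10.05 and 9.84 without it. Null groups overlapped, while all 3 wild-type peptide arrays lay below all 3 without peptide. The difference was 0.05 (SE 0.107, adjusted p = 0.83) in null cells and -0.17 (SE 0.107, adjusted p = 0.31) in wild-type cells, where 35.5% of genes were called. Its other 3 probe sets did not all give the same result in wild-type cells. Among them, 1 fell by 0.53 (SE 0.155, adjusted p = 0.021) though its groups overlapped, while the others gave -0.51 (SE 0.223, adjusted p = 0.12) and -0.12 (SE 0.105, adjusted p = 0.49). In null cells, in the same order, they gave -0.08, -0.14 and 0.18, with adjusted p-values of 0.82, 0.76 and 0.30. In a fit blocked by mouse, which called 32.4% of probe sets, the value of -0.51 passed as well (SE 0.106, adjusted p = 0.0041). The chosen probe set is of the x_at kind, which can bind related transcripts.

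Irf5, the factor that acts with MyD88 behind Toll-like receptors in myeloid and B cells, had the lowest signal of its 12 arrays in wild-type cells without peptide. It measured 7.60, 8.04 and 7.40 in null cells with peptide and 7.89, 8.26 and 7.70 without it. In wild-type cells it measured 7.55, 7.60 and 7.44 with peptide and 7.39, 7.38 and 7.32 without it. The null groups overlapped and the wild-type groups did not. The peptide difference was -0.27 (SE 0.161, adjusted p = 0.29) in null cells and 0.17 (SE 0.161, adjusted p = 0.52) in wild-type cells. With the mouse as a block the null value passed (-0.27, SE 0.079, adjusted p = 0.028, with 28.6% of probe sets called in that fit). Without the peptide array of null mouse 2 it passed too (-0.45, adjusted p = 0.039, with 23.8% called). The second Irf5 probe set went the other way in null cells, where it rose by 0.37 (SE 0.101, adjusted p = 0.017), and gave 0.24 in wild-type cells (SE 0.101, adjusted p = 0.10). The direction of Irf5 in null cells therefore depended on the probe set.

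**Figure D2:**
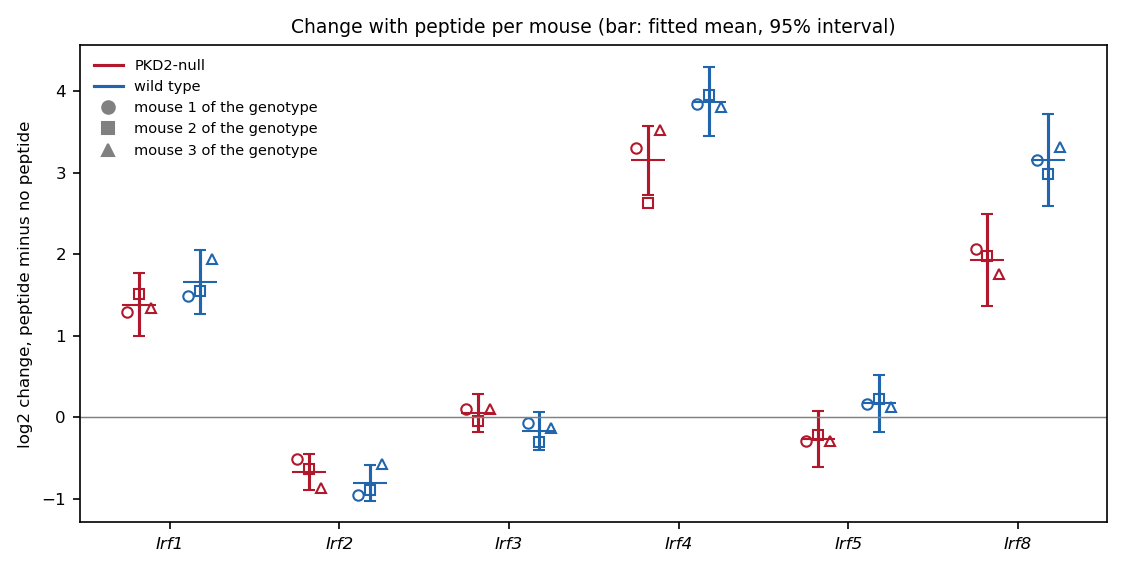
Log2 change with peptide (y axis) for the 6 IRF genes (x axis) in null (red) and wild-type (blue) cells; points are single mice, and bars give the fitted mean with its 95% interval. For Irf4, Irf5 and Irf8 all 3 null mice lie below all 3 wild-type mice, and for Irf5 they lie on opposite sides of 0. Only the chosen probe sets are drawn, and by the second Irf5 probe set the genotypes overlapped.

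Within single mice, the change of Irf8 was 2.07, 1.97 and 1.75 in null mice, against 3.16, 2.98 and 3.32 in wild-type mice. That of Irf4 was 3.30, 2.63 and 3.53 in null mice, against 3.85, 3.95 and 3.81 in wild-type mice. That of Irf5 was -0.29, -0.22 and -0.30 in null mice, against 0.16, 0.22 and 0.12 in wild-type mice. In these 3 genes the genotypes did not overlap by the chosen probe sets, with the null mice lower. By the second Irf5 probe set they did overlap, at 0.39, 0.44 and 0.28 in null mice, against 0.11, 0.31 and 0.30 in wild-type mice. For Irf1 the change was 1.29, 1.51 and 1.34 in null mice, against 1.49, 1.55 and 1.94 in wild-type mice. For Irf2 it was -0.52, -0.64 and -0.87 in null mice, against -0.95, -0.90 and -0.57 in wild-type mice. Irf1 and Irf2 thus overlapped between genotypes. For Irf3 it was 0.098, -0.054 and 0.10 in null mice, against -0.068, -0.31 and -0.13 in wild-type mice, with the null mice higher and no overlap. The share of all genes without overlap between genotypes was not counted, so nothing particular to the IRF genes is read from this.

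The difference of the peptide effects, null minus wild type, was -1.22 for Irf8 (SE 0.368, 95% interval -2.02 to -0.42, unadjusted p = 0.006, adjusted p = 0.54). In the unpaired fit it was not called, as 0 of the 6 genes were and 1 of 18193 genes was (0.0055%), although 2 of the 6 had an unadjusted p under 0.05 and 3209 of 45037 probe sets did. Irf8 was 36 from the bottom of all genes on this difference. The arrays with and without peptide share a code in the sample descriptions, and with that code, read as the mouse, as a block the Irf8 difference passed the test at -1.22 (SE 0.139, 95% interval -1.54 to -0.91, adjusted p = 0.034), among 43 probe sets called (0.0955%). The second Irf8 probe set gave -1.03 in that fit (SE 0.139, adjusted p = 0.046). Leaving out both arrays of null mouse 2 gave -1.24 (adjusted p = 0.13) in the unpaired fit.

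For Irf4 the difference of the effects was -0.72 (SE 0.276, 95% interval -1.32 to -0.12, unadjusted p = 0.023, adjusted p = 0.64), and its adjusted p was 0.27 when blocked by mouse. The second Irf4 probe set gave -0.97 (SE 0.248, adjusted p = 0.46). Without null mouse 2 the Irf4 value was -0.46 (adjusted p = 0.71), a shift of over 1.5 times. Irf5 gave -0.44 (SE 0.227, 95% interval -0.93 to 0.056, adjusted p = 0.75), but its second probe set gave 0.13. Irf1 gave -0.28 (95% interval -0.83 to 0.27), Irf2 0.13 (95% interval -0.17 to 0.44) and Irf3 0.22 (95% interval -0.11 to 0.55), none of them called. The median over the 6 genes was -0.36, beside -0.024 over all genes.

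Between genotypes at 1 culture condition, 0 of the 6 genes passed the test. With peptide, 1.64% of all genes were called (1.09% higher and 0.544% lower in null cells), and 3 of the 6 IRF genes had an unadjusted p under 0.05 (7034 of 45037 probe sets did). Irf8 was lower in null cells with peptide at 11.33 ± 0.548, against 12.01 ± 0.133 in wild-type cells, a difference of -0.68 (SE 0.260, 95% interval -1.25 to -0.11, adjusted p = 0.24) with overlapping groups. Without null mouse 2 this difference was -0.98 (SE 0.146, adjusted p = 0.0095), in a fit that called 2.55% of probe sets. Irf4 stood at 12.20 ± 0.013 in null cells, against 12.60 ± 0.165 in wild-type cells, a difference of -0.39 (SE 0.195, adjusted p = 0.36) without overlap, and its second probe set gave -0.64 (SE 0.175, adjusted p = 0.11). Irf3 stood at 10.07 ± 0.194 in null cells, against 9.75 ± 0.042 in wild-type cells (difference 0.32, SE 0.107, adjusted p = 0.18), without overlap. The other Irf3 probe sets were on the same side, with differences of 0.27, 0.71 and 0.46 (adjusted p = 0.24, 0.16 and 0.18). Irf2 gave 0.25 (adjusted p = 0.26), Irf1 -0.32 (adjusted p = 0.42) and Irf5 0.15 (adjusted p = 0.72).

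Without peptide, 8 of 18193 genes were called between genotypes (0.044%), and 1 IRF gene had an unadjusted p under 0.05 (4014 of 45037 probe sets did). That gene was Irf5, at 7.95 ± 0.285 in null cells, against 7.36 ± 0.037 in wild-type cells (difference 0.58, SE 0.161, 95% interval 0.24 to 0.93, unadjusted p = 0.0033, adjusted p = 0.27). The 3 null arrays lay above the 3 wild-type arrays, with null mouse 2 the highest at 8.26. By contrast, the second Irf5 probe set gave -0.14 (SE 0.101, adjusted p = 0.74). Irf8 gave 0.54 (SE 0.260, adjusted p = 0.59) without overlap, but its second probe set gave 0.34 (SE 0.277, adjusted p = 0.78) with overlap. By the chosen probe set the Irf8 difference was 0.27 without null mouse 2. Irf4 gave 0.33 (SE 0.195, adjusted p = 0.68), and 0.060 without that mouse. Irf1 (-0.04), Irf2 (0.12) and Irf3 (0.10) had 95% intervals that included 0.

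**Figure D3:**
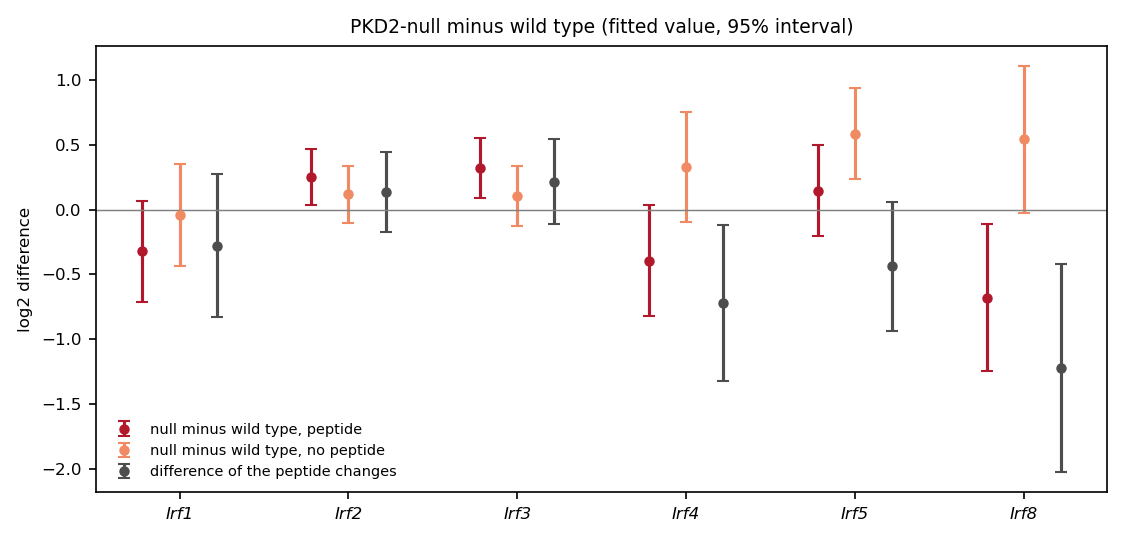
Log2 difference, null minus wild type (y axis), for the 6 IRF genes (x axis) with peptide (dark red), without peptide (orange), and for the change with peptide (grey); points are fitted values from 12 arrays and bars are 95% intervals. The intervals lie below 0 for Irf8 with peptide and for the change of Irf4 and Irf8, and above 0 for Irf2 and Irf3 with peptide and Irf5 without it; adjusted over all probe sets, 0 of the 18 values passed in this unpaired fit.

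The order of the 4 groups differed between genes. Irf4 and Irf8 were highest in wild-type cells with peptide, then in null cells with peptide, null cells without it and wild-type cells without it, and in each case the middle step, from the peptide groups to the others, was past the test. Irf1 was in the order wild type with peptide, null with peptide, wild type without and null without, at 12.40, 12.08, 10.74 and 10.70. Irf2 ran from null without peptide through wild type without it and null with peptide to wild type with peptide, at 9.74, 9.62, 9.06 and 8.81. Neighbours on the same side of the peptide step were not told apart by the test in any of these 4 genes. For Irf3 the order was null with peptide, null without, wild type without and wild type with peptide (10.07, 10.02, 9.92 and 9.75), and for Irf5 null without peptide, null with, wild type with and wild type without (7.95, 7.68, 7.53 and 7.36), with no neighbours told apart where they were tested.

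B cells also express Irf4, Irf5 and Irf8, so their markers were set beside these genes. With peptide, 3 of 10 were called higher in null cells, where 1.09% of all genes were: Fcrla (1.25, adjusted p = 0.014) and the B cell receptor genes Cd79b (1.19, adjusted p = 0.014) and Ighm (1.45, adjusted p = 0.031). The list's median was 0.74. Without peptide 0 of 10 were called and the median was 0.65. The plasma cell markers averaged 7.72 (7.38 to 8.18) in null cells with peptide and 8.31 (8.04 to 8.74) without it, against 7.26 (7.04 to 7.57) in wild-type cells with peptide and 7.64 (7.55 to 7.75) without it. Without peptide all 3 null arrays lay above the wild-type ones, but 0 of the 6 markers were called between genotypes (median 0.86). With peptide 1 of the 6 was called higher in null cells (median 0.47). Macrophage and monocyte markers averaged 5.94 and 6.25 in null cells with and without peptide, against 5.84 and 5.97 in wild-type cells, with Itgam and Mertk below the median of all probe sets. With peptide B cell markers were lower in both genotypes (4 of 10 fell in null and 6 of 10 in wild-type cells, and 0 rose). Of all genes, 19% were called lower in null and 20.4% in wild-type cells. Without null mouse 2, 9 of the 10 fell in null cells, but the share of all genes called lower in that fit was not counted. The mean of the 6 T cell markers was 11.13, 10.67 and 11.11 in null cells with peptide and 11.43, 10.97 and 11.50 without it, against 10.78, 10.80 and 10.68 in wild-type cells with peptide and 11.23, 11.38 and 11.35 without it. Null mouse 2 had the lowest value under either condition, and with peptide 2 of the 6 fell in null and 3 in wild-type cells. With peptide, conventional dendritic cell markers averaged 4.91, 5.12 and 4.97 in null mice, against 5.15, 5.28 and 5.16 in wild-type mice. Their median difference was -0.23, with 0 of 7 called. In the same comparison NK cell markers had a median of -0.43, with 1 of 5 called lower in null cells (0.544% of all genes were). The T cell, plasmacytoid dendritic cell, CD4 T cell and stroma lists had medians of 0.30, 0.16, 0.19 and -0.07, with 0 called. The part of these cells in the IRF values was not tested.

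**Figure D4:**
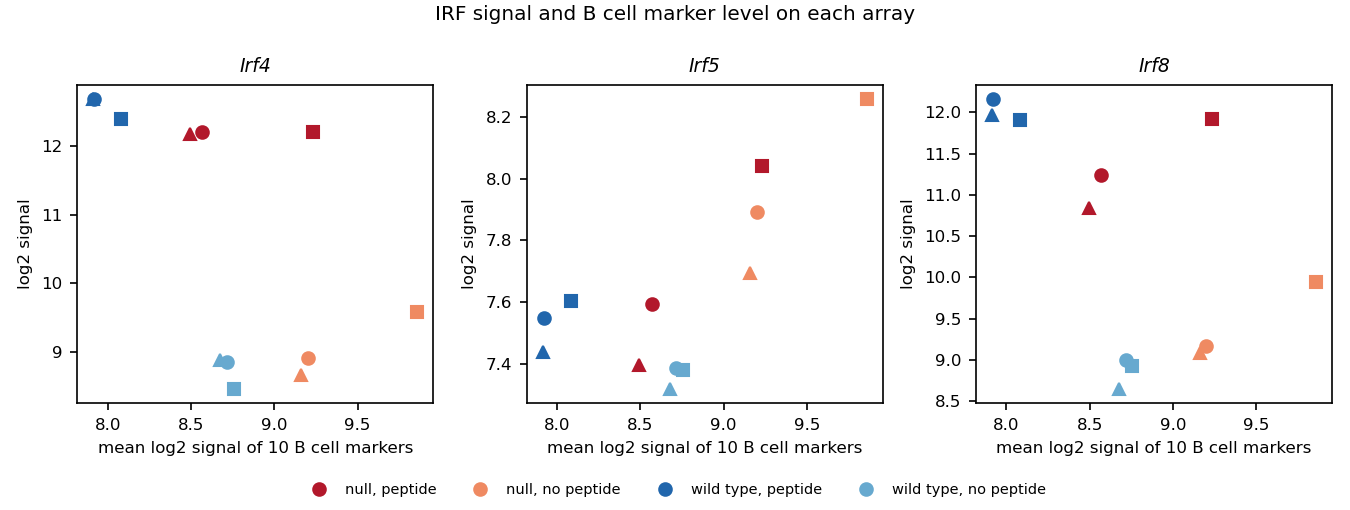
Log2 signal of Irf4, Irf5 and Irf8 (y axes) against the mean log2 signal of 10 B cell markers (x axis) on the 12 arrays; colours give the group, and marker shapes (circle, square, triangle) mouse 1, 2 and 3 of the genotype. Null arrays lie right of wild-type arrays under the same culture condition, and null mouse 2 (squares) has the highest marker level in both null groups and the highest Irf5 and Irf8 signal of the null arrays.

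Other genes of the pathway were taken from 7 lists chosen for their known link to the IRFs. Their counts stand beside the shares over all genes, 12.5% higher and 19% lower in null cells and 15.1% higher and 20.4% lower in wild-type cells, and nothing particular to a list is read from them. Of the rest of the family and the IRF2-binding proteins, 5 of 6 genes were measured. The corepressor gene Irf2bpl fell in both genotypes (-1.17 in null cells, adjusted p = 6.2e-05, and -1.42 in wild-type cells, adjusted p = 8.3e-06). In null cells Irf2bp1 fell (-0.39, adjusted p = 0.0028) and Irf2bp2 rose (0.45, adjusted p = 0.0036), while in wild-type cells they gave -0.16 (adjusted p = 0.17) and 0.02 (adjusted p = 0.94). The difference of the effects was not called for either (-0.23, adjusted p = 0.73, and 0.44, adjusted p = 0.55). Irf7, the amplifier of type I interferon, gave -0.02 in null cells and 0.34 in wild-type cells, and Irf9, the DNA-binding part of the ISGF3 complex, gave 0.19 in null and 0.08 in wild-type cells, none of them called. Irf7 with peptide averaged 7.05 in null cells and 7.64 in wild-type cells (difference -0.59, adjusted p = 0.20).

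The DNA-binding partners of IRF4 and IRF8 were measured in full. In null cells 5 of 16 rose and 4 fell (median 0.014), and in wild-type cells 8 rose and 4 fell (median 0.28). The largest called changes in null cells were those of Ikzf3 (1.32), Bcl6 (1.04) and the calcineurin-dependent factor Nfatc1 (0.99), and those in wild-type cells were Jun (2.03), Ikzf3 (1.13) and Nfatc2 (-0.92). Jun, an AP-1 subunit, gave 0.81 in null cells (SE 0.370, adjusted p = 0.15, and 0.028 when blocked by mouse), and its difference of the effects was -1.22 (SE 0.523, adjusted p = 0.67). Batf, the AP-1 factor that binds with IRF4 in T cells, gave 0.01 in null cells and 0.26 in wild-type cells, the wild-type value being called only when blocked by mouse (adjusted p = 0.045, against 0.14). The ETS partners Spi1 and Spib, known from myeloid and B cells, gave -0.68 (adjusted p = 0.016) and -0.57 (adjusted p = 0.10) in null cells, against -0.35 (adjusted p = 0.20) and -0.81 (adjusted p = 0.017) in wild-type cells. Blocked by mouse, Spib in null cells (adjusted p = 0.0022) and Spi1 in wild-type cells (adjusted p = 0.015) were called as well. The rise of Bcl6 in wild-type cells (0.41, adjusted p = 0.040) was not called in that fit (adjusted p = 0.077). With peptide 3 of the 16 were called higher in null cells than in wild-type cells and 0 lower: the repressor Bcl6 (9.48 in null, 8.53 in wild-type cells, difference 0.95, adjusted p = 0.0098), Nfatc2 (0.57, adjusted p = 0.030) and Tcf3 (0.53, adjusted p = 0.020). Of all genes, 1.09% were called higher and 0.544% lower in that comparison. Bcl6 and Tcf3 are also expressed in B cells, whose markers differed in the same direction. The part of B cells in these differences was not tested.

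Of 17 measured sensors, adaptors and kinases upstream of IRF3, IRF5 and IRF7, 2 rose and 3 fell in null cells (median -0.080) and 3 rose and 4 fell in wild-type cells (median -0.022). Ikbke, a kinase of IRF3 and IRF7, had the largest change, at -2.16 in null cells and -2.09 in wild-type cells. The DNA sensor Cgas rose by 1.06 in null and 1.08 in wild-type cells, and its downstream adaptor Sting1 fell by 0.61 in null and 0.70 in wild-type cells. The RNA sensor Ifih1 rose in wild-type cells (0.70, adjusted p = 0.011) and gave 0.26 in null cells (adjusted p = 0.41).

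Of 13 measured interferon, receptor and JAK-STAT genes, 4 rose and 5 fell in null cells (median -0.064) and 5 rose and 5 fell in wild-type cells (median -0.012). Ifng, the interferon that induces Irf1 and Irf8 in many cells, rose by 3.31 in null cells (adjusted p = 0.00019) and 5.45 in wild-type cells (adjusted p = 2.1e-06). Its difference of the effects was -2.14 (SE 0.682, adjusted p = 0.55). The feedback inhibitor Socs1 rose by 2.05 in null and 2.63 in wild-type cells, and the receptor chains Ifngr1 and Ifngr2 fell in both genotypes (-1.78 and -1.34 in null cells, -1.70 and -1.84 in wild-type cells). The type I interferon gene Ifnb1 averaged 3.86 and 3.87 in null cells with and without peptide and 4.16 and 4.17 in wild-type cells, below the median of all values (4.70).

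Among 16 genes known to depend on IRF1, 3 rose and 3 fell in null cells (median -0.082), and 5 rose and 2 fell in wild-type cells (median 0.12). The ligand gene Cd274 rose by 3.22 in null and 3.25 in wild-type cells, and the cytokine receptor gene Il12rb1 by 1.48 in null and 2.12 in wild-type cells. Nlrc5, the transactivator of MHC class I, rose by 0.98 in null and 1.21 in wild-type cells, but its call in null cells was lost without null mouse 2. The GTPase gene Gbp2 rose by 1.91 in wild-type cells (adjusted p = 0.0017) and gave 0.96 in null cells (adjusted p = 0.094, and 0.0087 when blocked by mouse). Of 12 measured genes known to depend on IRF4, 3 rose and 3 fell in null cells (median 0.0033) and 3 rose and 2 fell in wild-type cells (median 0.30). The T-bet gene Tbx21 rose by 5.23 in null and 5.67 in wild-type cells. The glycolytic enzyme gene Hk2 rose by 2.57 in null and 3.44 in wild-type cells, and the inhibitory receptor gene Pdcd1 by 2.22 in null and 2.24 in wild-type cells. Bach2, a repressor of effector genes, was called higher in null than in wild-type cells with peptide (11.12 in null, 10.68 in wild-type cells, difference 0.43, adjusted p = 0.048). Of 8 measured genes known to depend on IRF8, 2 rose and 1 fell in null cells (median -0.078) and 3 rose and 0 fell in wild-type cells (median -0.10), among them Il12b (0.94 in null and 1.63 in wild-type cells).

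Between genotypes without peptide, and for the difference of the effects, 0 genes of the 7 lists were called. With peptide the other 4 lists had 0 called genes, and the IRF8 list had 1, Bcl6, already counted above. Of all genes, 1.64% were called between genotypes with peptide. The median differences with peptide lay between -0.21 for the interferon and JAK-STAT list and 0.20 for the partners, beside -0.027 over all genes. Leaving out null mouse 2, 3 genes of the IRF1 list (Tap1, Psmb9 and Gbp2), 3 of the interferon list (Ifng, Socs1 and Usp18), Myd88 of the sensor list and Irf7 of the first list were called lower in null cells with peptide, in the fit that called 2.55% of probe sets. In the same fit Jak1 of the interferon list and Cybb of the IRF8 list were called higher in null cells. The partners there had 5 genes called higher and 1 (Jun) lower in null cells, and 5 of the 10 B cell markers were called higher. So were 2 of the 6 T cell, 2 of the 6 plasma cell and 1 of the 6 plasmacytoid dendritic cell markers. Of the 5 NK cell markers, 2 were called lower.

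**Figure D5:**
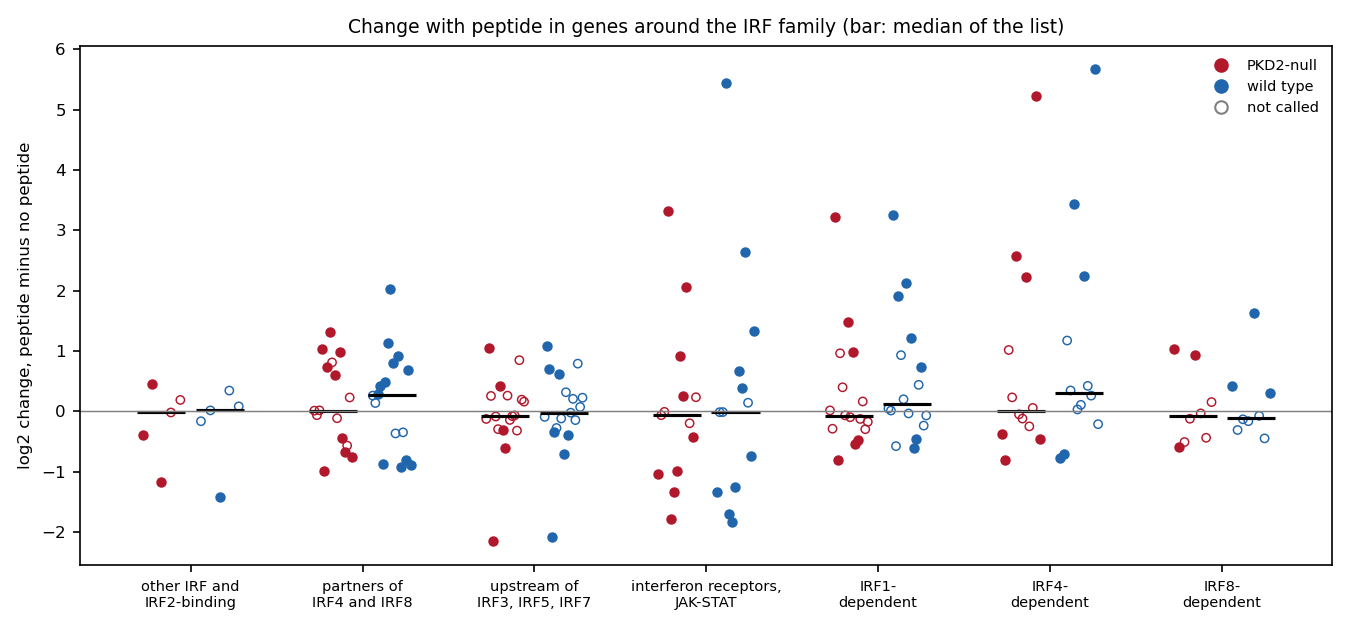
Log2 change with peptide (y axis) of the measured genes of 7 lists (x axis) in null (red) and wild-type (blue) cells; each point is 1 gene, filled where called, and the black line is the list's median. Medians lie between -0.10 and 0.30 in the lists, while single genes such as Tbx21 and Ifng lie above 3 in both genotypes.

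For each IRF gene that responded, the 3 genes with the most similar course were sought among 11038 genes, as the root mean square difference over the 12 arrays after each gene's own mean was taken off. The closest to Irf4 were Myc (0.19), Srm (0.21) and Mfsd2a (0.21), set against an SD of Irf4 of 1.86. The closest to Irf8 were St6galnac4 (0.23), Mthfd2 (0.26) and Ppa1 (0.26), against an SD of 1.40. These genes were picked for their likeness over the same arrays, so their changes are no separate evidence. The closest to Irf1 were Tfdp1 (0.17), Fam185a (0.18) and Tada2a (0.19), against an SD of 0.83, and the closest to Irf2 were Camk1d (0.066), Rrm2b (0.081) and Tmod3 (0.082), against an SD of 0.41.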

How the data were processed

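The deposited log2 signals of 45101 probe sets on 12 arrays were made by the authors with Affymetrix Expression Console 1.1, per the submitters' processing notes; the normalization behind them was not given in the sources used here. Used as deposited, they spanned 2.43 to 15.1. The 64 control probe sets were left out. Of the other 45037, 34945 had 1 gene symbol, 932 had several and entered only the adjustment, and 9160 had none. A limma 3.58.1 model of the 4 group means was run in R 4.3.3 (8 residual and 4.18 prior degrees of freedom), with 5 two-sided comparisons adjusted over all 45037 probe sets. Simulated data were used to test the script.

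Arrays were paired by a code of genotype and number in the sample descriptions, read as the mouse: each array without peptide deviated together with the peptide array of its own mouse (r 0.116 to 0.577) more than with those of other mice (highest for any array 0.129). The mouse was then a fixed block, in which genotype comparisons cannot be fitted, or a random one. Other alternatives were scaling, a filter on dim probe sets, an intensity trend, fits of the compared groups alone, other probe sets and leaving out arrays. Leaving out whole mice was chosen after seeing the data.

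Named are the 6 genes, the 3 most similar genes of each that was called, all measured members of the first list, and up to 3 called genes of each other list with the largest change. Genes named besides (Batf, Spi1, Spib, Ifnb1, Tap1, Psmb9, Usp18, Myd88, Jak1 and Cybb, and B cell and macrophage markers) were chosen after their values were seen. Of 155 genes in the lists, 140 matched a probe set. Promoter sequences are from RefSeq. The members and lists were chosen with earlier results of these data known. The number of arrays limits the precision.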

Additional observations from a re-analysis of the deposited data

Results flagged for a closer look

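The change of Irf8 with peptide differed between genotypes by -1.22 (null minus wild type) when the mouse was a block, with an adjusted p of 0.034. All 3 null mice had a smaller rise than all 3 wild-type mice, but the share of all genes with such a separation was not counted. In the unpaired fit the same difference had an adjusted p of 0.54, and over the alternatives to that fit it lay between -1.52 and -0.95.

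The change of Irf5 with peptide was below 0 in all 3 null mice and above 0 in all 3 wild-type mice, a difference of -0.44. The test of that difference was not passed (adjusted p = 0.75 unpaired, 0.23 when blocked by mouse). The second Irf5 probe set gave 0.13, and by it the genotypes overlapped. How many of all genes lay on opposite sides of 0 in this way was not counted.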

How the results depend on the processing

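The calls of Irf1, Irf2, Irf4 and Irf8 with peptide held in both genotypes under every alternative run. Irf5 was also called in null cells (5 of 6 genes called) under some of them, but in opposite directions. It was called lower with the mouse as a block and without the peptide array of null mouse 2. By its second probe set it was called higher (0.37, adjusted p = 0.017). With the replicate block (mouse as a fixed block), the count for the difference of the effects was 1 (Irf8) in place of 0, and calls over all probe sets were 43 in place of 1. The block also brought Irf5 in null cells past the threshold (-0.27, adjusted p = 0.028) and changed no other call of the chosen IRF probe sets. As a random block (consensus correlation 0.20) it left the counts as they were. Without null mouse 2, chosen after seeing the data, 1 gene (Irf8) was called between genotypes with peptide in place of 0, and 1150 probe sets in place of 531. That fit also called 64 probe sets in place of 17 between genotypes without peptide and 11 in place of 1 for the difference of the effects. Leaving out single arrays gave 0 in the 3 genotype comparisons, and no other mouse changed a count.

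Of 782 single-gene values under an alternative, 762 kept direction and side of the threshold, 0 lost a call, 5 gained one and 15 changed sign, 0 of them called before. The other gains were Irf3 in wild-type cells by the mean of its probe sets (-0.33, adjusted p = 0.030) and Irf5 in null cells without the peptide array of null mouse 2 (-0.45, adjusted p = 0.039). Irf3 in null cells turned to -0.011 after quantile normalization, to -0.0053 without the array of null mouse 2 without peptide and to -0.039 without the peptide array of null mouse 1 (leaving out single arrays or mice, -0.039 to 0.15). Irf5 in null cells turned to 0.048 by the mean of its probe sets and to 0.37 by its second probe set, which also gave -0.14 and -0.015 between genotypes without and with peptide and 0.13 for the difference of the effects. The second Irf3 probe set gave -0.024 between genotypes without peptide. Irf1 between genotypes without peptide turned to 0.027 without wild-type mouse 1 and to 0.11 without null mouse 3, whether 1 or both arrays were left out (range -0.16 to 0.11). Irf5 between genotypes with peptide turned to -0.034 without null mouse 2, likewise (range -0.034 to 0.29). The cause was not tested. With the block, counts within the lists named above moved by over 1.5 times for B cell markers in null cells (10 of 10 fell in place of 4), macrophage markers (4 fell in null and 2 in wild-type cells in place of 0), the IRF4 list (5 rose in wild-type cells in place of 3) and the IRF8 list (3 fell in null cells in place of 1, and 2 in wild-type cells in place of 0).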
